A study of Oncorhynchus mykiss with 24 samples.

Results

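The cytosolic chaperones hsp90 and hsc70 were followed in trout liver across 6 diets. All array features annotated hsp90ba (now hsp90ab1) or hsc70a (now hspa8) were taken, a feature being 2 adjacent spots with the same annotation. This gave 5 features (10 spots) of 4368 features (8736 spots) in all, 3 of them hsp90ba and 2 hsc70a. Of the 4368 features, 49 carry a gene symbol, from 32 symbols.

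HSP90 is a cytosolic chaperone that binds nearly folded proteins with its co-chaperones and uses ATP to bring them to an active form. In vertebrates it holds the aryl hydrocarbon receptor and the estrogen, glucocorticoid and other steroid receptors in a state that can bind ligand. HSC70 is the constitutive member of the HSP70 family. It binds unfolded stretches of newly made proteins, passes receptors on to HSP90 and also strips clathrin from coated vesicles.

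Juvenile rainbow trout (Oncorhynchus mykiss) of the Mt. Shasta strain, aged 12 to 18 months, were fed for 12 days and sampled on day 13, with 2 tanks of 6 fish per treatment. The test diets held, with abbreviations read in their usual sense, 17β-estradiol (E2, an estrogen) at 5 ppm, 3,3'-diindolylmethane (DIM) at 500 or 1500 ppm, indole-3-carbinol (I3C, an indole of cruciferous vegetables that forms DIM as a dimer in acid) at 500 or 1500 ppm, or β-naphthoflavone (BNF, a synthetic agonist of the aryl hydrocarbon receptor) at 500 ppm. The control diet carried 0.15% dimethyl sulfoxide, and equal amounts of RNA from single livers of 12 of these fish were pooled as the reference on every array. Each diet has 2 samples, each hybridised on 2 arrays with the dyes exchanged, which makes 12 samples and 24 arrays. The labels do not say how many fish a treated sample holds, so p-values measure no more than how far these samples spread, and that spread may be technical. The pool is a single control sample, and tests against it leave out the spread of the control.

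Values are log2 ratios of treated over pool, a difference and not a level; intensities were not used here, so neither the level of a gene nor the identity of the tissue could be checked. The ratio direction is only likely: the labels put Cy3 in channel 1 and Cy3 over Cy5 was taken as the ratio, and under the inverse ratio every sign below would flip. In 2 samples, replicate 1 of E2 and replicate 1 of DIM at 500 ppm, all 4 arrays correlated negatively with arrays of the same dye orientation (median r over all features of -0.70 to -0.54). No label settles their direction. They were turned on the basis of their dye component, the part shared by both arrays of a swap. Means with their signs as deposited are given for the chaperone features and the cell type markers in E2 and DIM at 500 ppm. Centring removed an offset common to all features: on uncentred arrays the median of all features stood at -0.34 in E2, -0.34 in BNF, -0.44 in I3C at 500 ppm, -0.09 in I3C at 1500 ppm and 0.03 in DIM at 500 ppm, so changes are reported relative to that median. The samples of a diet correlated over all features at 0.46 in E2, 0.85 in DIM at 500 ppm, 0.57 in DIM at 1500 ppm, 0.37 in I3C at 500 ppm, 0.75 in I3C at 1500 ppm and 0.16 in BNF. Without the turn, r has the same size and a negative sign for the pairs of E2 and of DIM at 500 ppm. The adjacent spots of BNF replicate 1 correlated within arrays at 0.41 and 0.57, against 0.81 to 0.94 on the other arrays.

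The 3 hsp90ba features do not stand for 3 separate probes. The first (spots 6040209 and 6040210) and the second (6040611 and 6040612) carry the same sequence accession, printed at 2 positions, while the third (11040207 and 11040208) carries another accession. The first hsc70a feature (2010211 and 2010212) and the second (6020205 and 6020206) carry different accessions. The gene table of assembly USDA_OmykA_1.1 lists close relatives beside both genes, hsp90bb beside hsp90ab1 and hspa8b beside hspa8, and the values do not show which copy a spot bound. The first and second hsp90ba features are thus repeat measurements of 1 probe and are not independent evidence.

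Against the vehicle pool and with the turn, the hsp90ba probe printed at 2 positions was lower, in the likely direction, with E2 or DIM at either dose. With signs as deposited the E2 means were -0.069 and 0.053. The probe was then called in no diet, where at most 0.0916% of all features were. Without replicate 1, DIM at 1500 ppm stood at -0.41 and -0.55. With the turn, the lowest values were in DIM at 500 ppm, near 0.48 to 0.49 of the pool; with signs as deposited the DIM 500 ppm means were 0.0090 and -0.022 and those of DIM at 1500 ppm, -0.62 and -0.74, were the lowest. On centred arrays the probe was near the pool in BNF and I3C at 500 ppm, and I3C at 1500 ppm lay between, with 1 of the 2 positions called. The other hsp90ba probe and both hsc70a probes were called in no diet.

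The first hsp90ba feature had log2 ratios of -1.07 and -1.05 in the DIM 500 ppm samples and of -0.83 and -0.41 in the DIM 1500 ppm samples. It had -0.67 and -0.81 in E2, -0.07 and -0.26 in I3C at 500 ppm, -0.35 and -0.66 in I3C at 1500 ppm, and 0.27 and -0.14 in BNF. Of the 12 samples, 11 were below the pool with the turn, and both DIM 500 ppm samples were lower than every other sample; as deposited, replicate 1 stands at 1.07 in DIM at 500 ppm and at 0.67 in E2. The second feature had -0.996 and -1.04 in DIM at 500 ppm, -0.92 and -0.55 in DIM at 1500 ppm, and -0.82 and -0.72 in E2. It had -0.04 and -0.21 in I3C at 500 ppm, -0.42 and -0.61 in I3C at 1500 ppm, and 0.33 and -0.08 in BNF. The samples thus fell in nearly the same order at both print positions, with BNF replicate 1 the highest at each.

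**Figure D1:**
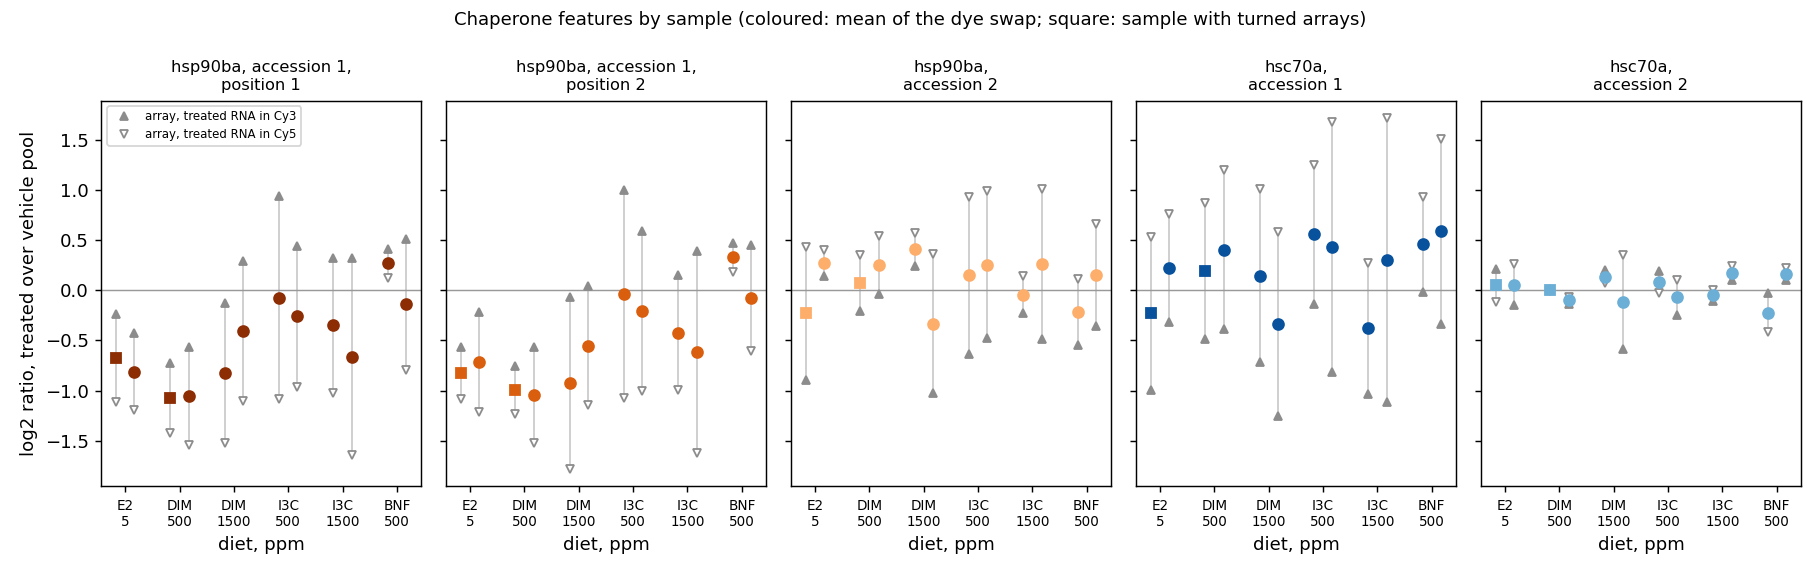
Log2 ratio of treated liver over the vehicle pool (y axis) for the 5 chaperone features in the 6 diets (x axis, doses in ppm). Coloured symbols are samples (mean of a dye swap; squares mark samples whose arrays were turned), and grey triangles are the single arrays, filled with treated RNA in Cy3 and open in Cy5. With the arrays turned, the 2 positions of the first hsp90ba accession lie lowest in DIM at 500 ppm, while the dye shifts single arrays by more than many diets do.

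In DIM at 500 ppm, limma gave the first feature -1.06 ± 0.16 (log2 ratio ± SE, n = 2, adjusted p = 0.000220) and the second -1.02 ± 0.15 (adjusted p = 0.000226). The call held for both without either DIM 500 ppm sample (limma, adjusted p of 0.0128 to 0.0161). With signs as deposited the means were 0.0090 and -0.022, since the 2 samples then have opposite signs, and neither was called. In this comparison 2 of the 5 chaperone features were called with the turn, where 10.6% of all features were. As deposited, 0% of all features were called.

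In DIM at 1500 ppm the first feature was at -0.62 ± 0.16 (limma, n = 2, adjusted p = 0.0188) and the second at -0.74 ± 0.15 (adjusted p = 0.00396). No array of this diet was turned. Without replicate 1 both lost the call, at -0.41 (adjusted p = 0.247) and -0.55 (adjusted p = 0.109). With signs as deposited the ratios were the same, the SE from the pooled spread was 0.44 and 0.43, and neither was called. The share called among all features was 9.87% with the turn and 0% as deposited.

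In E2 the first feature was at -0.74 ± 0.16 (limma, n = 2, adjusted p = 0.00832) and the second at -0.77 ± 0.15 (adjusted p = 0.00492). Both lost the call without replicate 1 (adjusted p of 0.0768 and 0.127) and without replicate 2 (adjusted p of 0.126 and 0.0526), the remaining sample being taken to vary as samples of other diets do. With signs as deposited the means were -0.069 and 0.053. Of all features, 5.98% were called with the turn and 0% as deposited.

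In I3C at 1500 ppm the second feature passed the threshold at -0.52 ± 0.15 (limma, n = 2, adjusted p = 0.0466) and the first did not, at -0.51 ± 0.16 (adjusted p = 0.0627). The 2 estimates differ by less than either SE. The call of the second was lost without either sample of this diet (-0.61, adjusted p = 0.194 without replicate 1; -0.42, adjusted p = 0.517 without replicate 2), without either I3C 500 ppm sample (adjusted p = 0.0580) and without either DIM 500 ppm sample (adjusted p = 0.0785). The first was called without either DIM 1500 ppm sample (adjusted p = 0.0441). The share called among all features was 9.07%.

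In I3C at 500 ppm the features were at -0.17 ± 0.16 and -0.12 ± 0.15, with limma's adjusted p at 0.693 and 0.762 (n = 2), where 0.755% of all features were called. In BNF they were at 0.06 ± 0.16 and 0.12 ± 0.15 (adjusted p of 0.968 and 0.936), where 0.0458% were. The 95% intervals of the first feature ran between -0.50 and 0.17 in I3C at 500 ppm and between -0.28 and 0.40 in BNF. On uncentred arrays the features were at -0.64 and -0.59 in I3C at 500 ppm (limma, adjusted p of 0.0552 and 0.0707, with 18.7% of all features called) and at -0.29 and -0.23 in BNF. Relative to the uncentred median of all features they were at -0.20 and -0.15 in I3C at 500 ppm and at 0.05 and 0.11 in BNF.

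**Figure D2:**
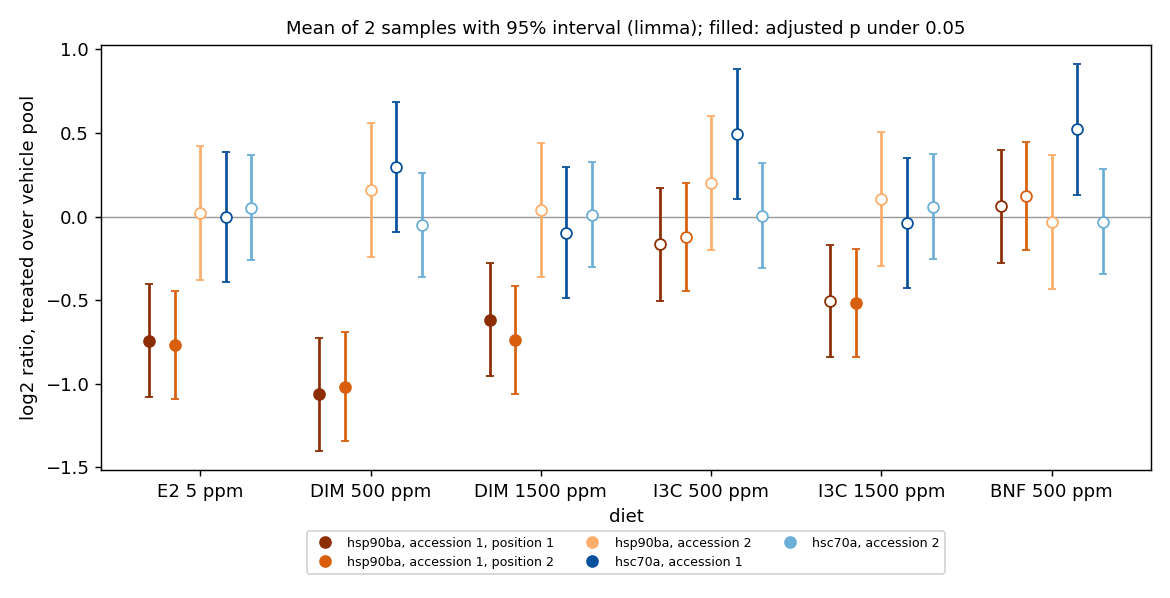
Log2 ratio over the vehicle pool (y axis) of each chaperone feature in each diet (x axis), as limma's mean of 2 samples with its 95% interval; filled circles have an adjusted p under 0.05. Filled circles are confined to the 2 positions of the first hsp90ba accession, in E2, both doses of DIM and I3C at 1500 ppm. With signs as deposited no circle would be filled, where at most 0.0916% of all features were called in any diet.

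Single arrays of the same swap differed by the dye, and by more in some diets than in others. In DIM at 500 ppm and in E2, all 4 arrays and all 8 spots of each of the first and second features were below the pool with the turn, with both dyes; as deposited, 2 of 4 arrays and 4 of 8 spots were. In DIM at 1500 ppm 3 of 4 arrays were below it for each. In both I3C diets 2 of 4 arrays were, those with treated RNA in Cy5. In BNF 1 of 4 arrays was below the pool.

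The dye component, taken as the difference between the array with treated RNA in Cy3 and that in Cy5 divided by 2, averaged 0.64 and 0.65 on the log2 scale for the first and second hsp90ba features over the 10 samples that were not turned, positive in 10 of 10. It averaged -0.45 for the third hsp90ba feature and -0.85 for the first hsc70a feature, positive in 0 of 10. For the second hsc70a feature it averaged -0.070. The turned samples were chosen by their dye component over all features, so its sign in them after the turn is no result; as deposited, both were negative in the first and second features. A diet value is the mean over both dyes, so that a dye shift equal on both arrays of a swap cancels. For the first feature the mean shift of 0.64 was larger in size than its diet values in DIM at 1500 ppm (-0.62), both I3C diets and BNF. With signs as deposited it was also larger than those in E2 (-0.069) and DIM at 500 ppm (0.0090).

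Set among all features, the first and second hsp90ba features lay in the lower tail in E2, DIM and I3C at 1500 ppm. In DIM at 1500 ppm, which holds no turned array, 208 and 172 of the other 4367 features were lower still. In DIM at 500 ppm 136 and 146 were with the turn, and 1962 and 1548 with signs as deposited. In E2 107 and 100 were with the turn, and 1327 and 2251 as deposited. The median of all features stood at 0.066 in DIM at 500 ppm and 0.030 in E2, while the median of the 5 chaperone features was -0.050 and -0.0030.

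**Figure D3:**
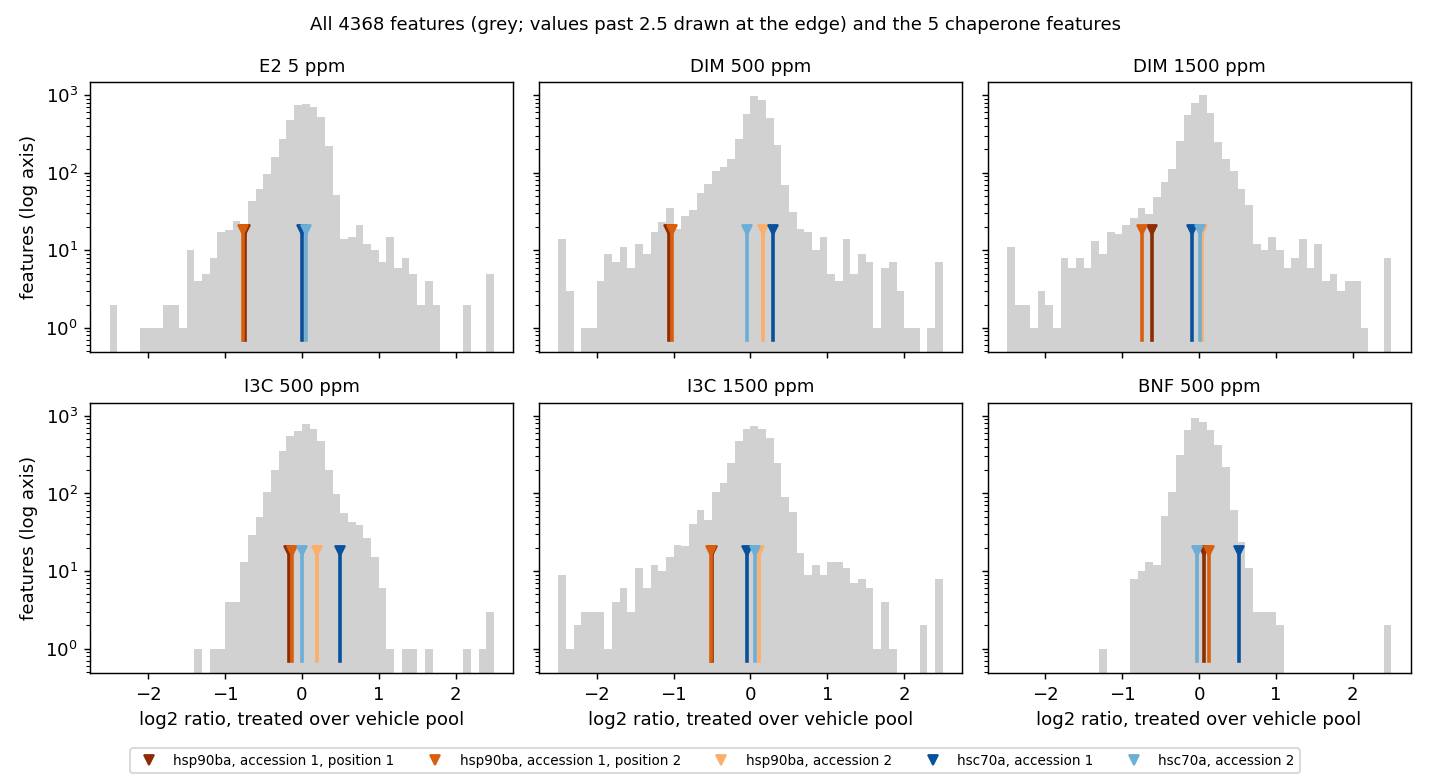
Number of features (y axis, log scale) by log2 ratio over the vehicle pool (x axis, bins to 2.5 either way with more extreme values in the end bins) in each diet, with the 5 chaperone features as coloured lines. The 2 positions of the first hsp90ba accession sit in the lower tail in E2, DIM and I3C at 1500 ppm, for E2 and DIM at 500 ppm only with the arrays turned, and near the centre in BNF, while the second hsc70a accession stays near 0 in all 6.

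The differences between diets do not involve the pool, whose value cancels. Over all 6 diets together, limma's F test passed the threshold for the first hsp90ba feature (F = 6.54, adjusted p = 0.0468) and the second (F = 8.07, adjusted p = 0.0215), where 4.9% of all features passed. The third hsp90ba feature had F = 0.227 (adjusted p = 0.989), the first hsc70a feature F = 2.32 (adjusted p = 0.616) and the second F = 0.0874 (adjusted p = 0.998). Without BNF replicate 1, or without either DIM 500 ppm sample, neither hsp90ba feature passed. Without E2 replicate 2, BNF replicate 2 or any of the I3C samples 1 of them passed, and with signs as deposited none of the 5 did.

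At the matched dose of 500 ppm, DIM and its parent indole I3C differed in the first and second hsp90ba features. The first was at -1.07 and -1.05 in the DIM samples, against -0.07 and -0.26 in the I3C samples, a difference of -0.90 ± 0.22 (limma, DIM minus I3C, n = 2 each, adjusted p = 0.0462). The second differed by -0.90 ± 0.21 (limma, adjusted p = 0.0371), and the samples did not overlap in either. With 2 samples per diet that often happens by chance, and its share over all features was not computed. Of all features 2.82% were called. The call was lost for both features without any one of the DIM 500 ppm samples (adjusted p of 0.268 to 0.308), the I3C 500 ppm samples (0.121 to 0.182) or the I3C 1500 ppm samples (0.0548 to 0.0614), which enter only the pooled spread. With the replicate number as a block it was lost too (limma, adjusted p of 0.0581 and 0.0523). On uncentred arrays the differences were -0.46 and -0.46 (limma, adjusted p of 0.408 and 0.408). Relative to the uncentred median of all features, the first feature was at -1.13 in DIM and -0.20 in I3C. The second was at -1.08 and -0.15. With signs as deposited the differences were 0.18 and 0.10.

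With the turn, the difference between DIM and I3C was smaller at 1500 ppm than at 500 ppm, though that change was not tested. As deposited the 500 ppm differences were 0.18 and 0.10, and that of the second feature was then larger in size at 1500 ppm. The first feature was at -0.83 and -0.41 in DIM, against -0.35 and -0.66 in I3C, a difference of -0.11 (95% interval -0.59 to 0.37). The second differed by -0.22 (-0.68 to 0.24), with limma's adjusted p at 0.999 for both and 0.0229% of all features called. The samples of the 2 diets overlap, and the intervals do not show that the compounds act alike.

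With the turn, DIM against BNF at 500 ppm gave the widest gap of the matched doses. As deposited, the gap of I3C against BNF was wider. The first feature was at -1.07 and -1.05 in DIM, against 0.27 and -0.14 in BNF, a difference of -1.12 ± 0.22 (limma, n = 2 each, adjusted p = 0.00509). The second differed by -1.14 ± 0.21 (adjusted p = 0.00328), where 6.34% of all features were called. Without BNF replicate 1 neither was called (-0.92 and -0.94, adjusted p of 0.0833 and 0.0629), and without DIM 500 ppm replicate 1 only the second was (adjusted p of 0.0587 and 0.0403). On uncentred arrays neither was called (-0.81 and -0.82, limma, adjusted p of 0.322 and 0.304), nor with signs as deposited (-0.053 and -0.15). Relative to the uncentred median of all features, the first feature was at -1.13 in DIM and 0.05 in BNF. The second was at -1.08 and 0.11. I3C against BNF at 500 ppm gave -0.23 (95% interval -0.71 to 0.25) and -0.25 (-0.71 to 0.21), with adjusted p at 0.996 for both and 0.16% of all features called.

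Neither compound showed a dose difference that passed the threshold. For DIM at 1500 over 500 ppm the first feature differed by 0.45 (95% interval -0.03 to 0.92, limma, unadjusted p = 0.0657) and the second by 0.28 (-0.18 to 0.74), and 0% of all features were called. As deposited, the DIM differences were -0.63 and -0.72, also not called in limma. For I3C at 1500 over 500 ppm the differences were -0.34 (-0.82 to 0.14, adjusted p = 0.566) and -0.40 (-0.85 to 0.06, adjusted p = 0.479), with 1.08% of all features called. The sign of the DIM dose estimate thus depends on the turn.

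By log2 ratio, the diets ran for the first hsp90ba feature as DIM at 500 ppm, E2, DIM at 1500 ppm, I3C at 1500 ppm, I3C at 500 ppm and BNF, lowest first, and for the second in the same order. As deposited, the order of the first was DIM at 1500 ppm, I3C at 1500 ppm, I3C at 500 ppm, E2, DIM at 500 ppm and BNF, and in the second E2 and DIM at 500 ppm changed places. With the turn, for each pair of neighbours in that order the 95% interval of the difference held 0. Of the 15 pairs of diets, the interval with the turn left out 0 for 7 in the first feature and 8 in the second. The samples did not overlap for 12 pairs in each. As deposited these counts were 0 and 4 in both. The intervals are not adjusted for the number of pairs, and 2 samples per diet often fail to overlap by chance. The share over all features was not computed, so these counts only describe the 2 features. For E2 against BNF the difference was -0.81 (-1.28 to -0.33) in the first feature, and -0.13 with signs as deposited. Doses differ between those 2 diets, so it compares diets and not compounds.

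The third hsp90ba feature, of the other accession, was not called in any comparison. It had 0.07 and 0.25 in DIM at 500 ppm, 0.41 and -0.33 in DIM at 1500 ppm, and -0.23 and 0.27 in E2. It had 0.15 and 0.25 in I3C at 500 ppm, -0.05 and 0.26 in I3C at 1500 ppm, and -0.22 and 0.15 in BNF. With the turn the samples of each diet overlapped those of every other diet, and as deposited those of all but 1 pair of diets did. The replicates of DIM at 1500 ppm lay on opposite sides of 0. Diet means with the turn ran from -0.03 in BNF to 0.20 in I3C at 500 ppm, each with an SE of 0.19, and none was called. As deposited, both E2 samples were above the pool, at 0.23 and 0.27, and the E2 mean of 0.25 was the highest. DIM at 500 ppm was then at 0.091, and again none was called.

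The contrast between the 2 accessions was tested over all 12 samples, in which both are read on the same arrays against the same pool. The first feature was below the third in 11 of 12 samples, by 0.59 on average (first minus the third -0.59 ± 0.55, SD, n = 12; exact two-sided sign-flip permutation test, p = 0.00488, 0.00977 adjusted over the 4 pairs within a gene, 0.000488 being the smallest p the test allows). The second minus the third was also -0.59 ± 0.55 (exact permutation p = 0.00488). The pool does not cancel between different accessions, so its error in either would shift all 12 differences alike. The permutation leaves out that error, so its p-values do not cover the spread of the control. It also flips samples of different diets as if they shared a common mean. Both limits hold for the hsc70a pair tested below as well. By diet, the first minus the third was -1.14 and -1.31 in DIM at 500 ppm, -1.23 and -0.08 in DIM at 1500 ppm, and -0.44 and -1.08 in E2. It was -0.22 and -0.51 in I3C at 500 ppm, -0.30 and -0.92 in I3C at 1500 ppm, and 0.48 and -0.29 in BNF. With the turn, BNF replicate 1 was the only sample in which the first accession was above the other; as deposited, replicate 1 of E2 and of DIM at 500 ppm were so too. The mean differences as deposited were -0.32 and -0.31 and did not pass (exact permutation, adjusted p = 0.234).

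The same test on the first and second features, the repeat prints of 1 accession, gave a mean difference of 0.0014 ± 0.089 (SD, n = 12; exact permutation p = 0.956). Their sample values correlated at r = 0.98 and each was the other's closest match among 4367 features. The first and the third correlated at -0.39, the second and the third at -0.28 (-0.41 and -0.34 as deposited). These correlations are descriptions over 12 samples that share arrays and pool.

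**Figure D4:**
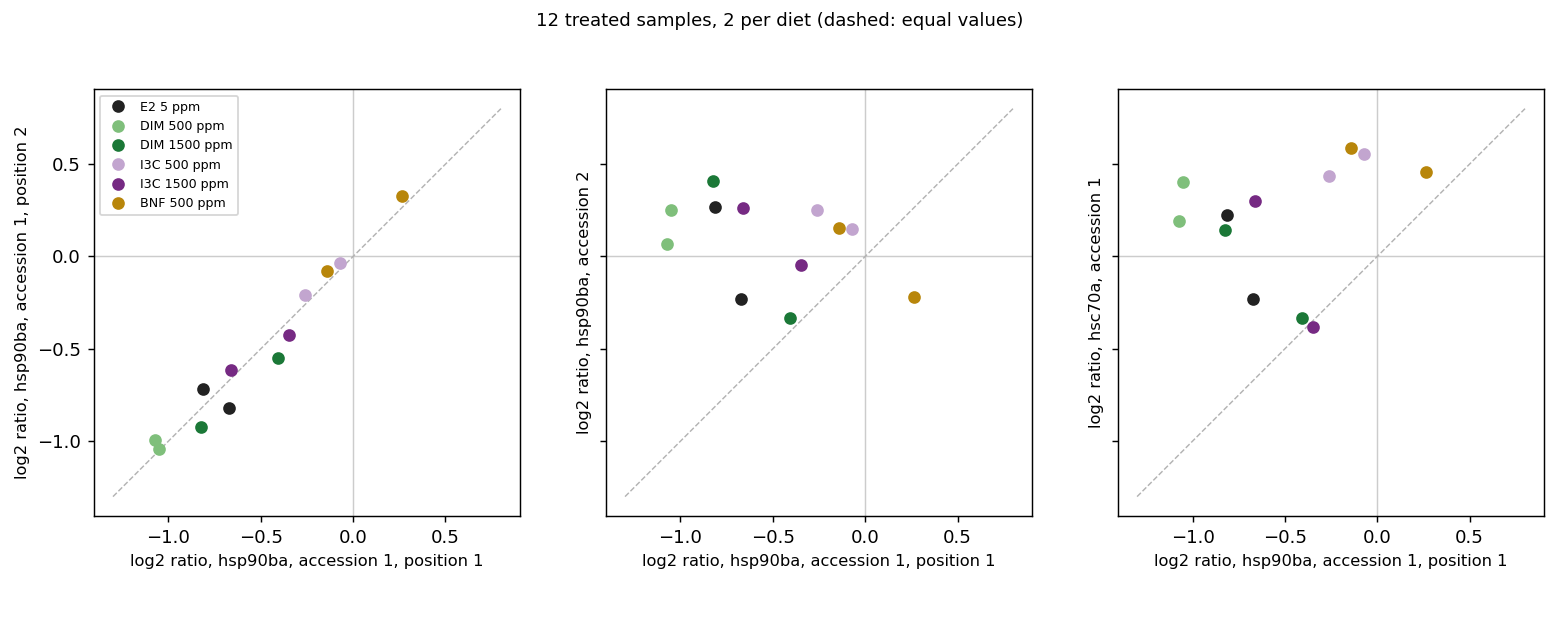
Log2 ratios of 3 features (y axes) against that of the first hsp90ba feature (x axis) in 12 samples, coloured by diet, with the arrays turned and a dashed line of equal values. The repeat print of the same accession follows the line, while the other hsp90ba accession and the first hsc70a accession spread to the upper left of it, except for BNF replicate 1 with the other hsp90ba accession and I3C 1500 ppm replicate 1 with hsc70a.

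The same comparison was made for every symbol with more than 1 feature. Over 4 pairs of features with 1 accession, r ran from 0.65 to 0.98, with a median of 0.95. Over 22 pairs with different accessions, from 10 symbols, r ran from -0.39 to 0.87 with a median of 0.51, and 5 were below 0. The hsp90ba pairs of different accession were 2 of those 5. Both set a repeat print of 1 accession against the same other feature, so they are not independent. With the turn, 1 of them was the lowest of all, at -0.39. Their r as deposited was -0.41 and -0.34, while the lowest over the 22 pairs was then -0.47, from another symbol. Averaged over the 3 hsp90ba features, the value was -0.64 in DIM at 500 ppm (limma, adjusted p = 0.00358), -0.44 in DIM at 1500 ppm (0.0494), -0.50 in E2 (0.0367) and -0.31 in I3C at 1500 ppm (0.213). In this setting 10.6%, 9.83%, 5.96% and 9.05% of all features were called, in the same order. The first accession enters this average with 2 features and the other with 1, so the average leans to the first accession. As deposited, it was 0.026 in DIM at 500 ppm and 0.078 in E2, and no diet was called.

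**Figure D5:**
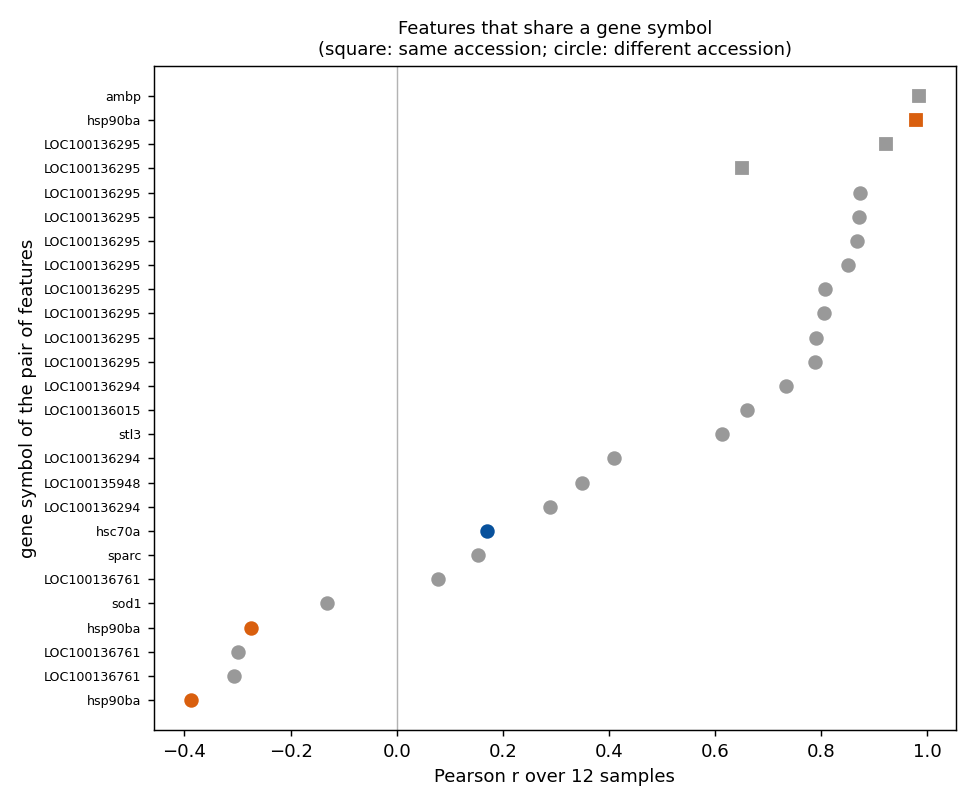
Pearson r over 12 samples (x axis) for every pair of features that share a gene symbol (y axis, 1 row per pair), with squares for the same accession and circles for different ones. The hsp90ba pair of 1 accession (orange square) stands at 0.98 and the hsp90ba pairs of different accession (orange circles) at -0.28 and -0.39, with the hsc70a pair (blue) at 0.17.

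The first hsc70a feature had its highest values in BNF, at 0.46 and 0.59, and in I3C at 500 ppm, at 0.56 and 0.43. It had 0.19 and 0.40 in DIM at 500 ppm and 0.14 and -0.34 in DIM at 1500 ppm. It had -0.23 and 0.22 in E2 and -0.38 and 0.30 in I3C at 1500 ppm. Both samples of BNF and both of I3C at 500 ppm were above the pool, while the 2 samples of DIM at 1500 ppm and of I3C at 1500 ppm lay on opposite sides of it. In DIM at 500 ppm both were above it with the turn and on opposite sides as deposited, and in E2 they were on opposite sides with the turn and both above it as deposited.

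None of these passed the threshold in limma. BNF gave 0.52 ± 0.18 (n = 2, unadjusted p = 0.0123, adjusted p = 0.628) and I3C at 500 ppm 0.50 ± 0.18 (unadjusted p = 0.0166, adjusted p = 0.231). DIM at 500 ppm gave 0.30 ± 0.18 (adjusted p = 0.478), E2 0.00 ± 0.18, I3C at 1500 ppm -0.04 ± 0.18 and DIM at 1500 ppm -0.10 ± 0.18. In BNF 37 of the other 4367 features were higher. On uncentred arrays the feature was at 0.17 in BNF and 0.03 in I3C at 500 ppm, and at 0.51 and 0.46 in those diets relative to the uncentred median of all features. With arrays scaled alike it was at 0.49 in BNF and 0.22 in I3C at 500 ppm. With signs as deposited E2 was at 0.23 and DIM at 500 ppm at 0.11, also not called.

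Between diets, the first hsc70a feature differed by -0.53 for I3C at 1500 over 500 ppm (95% interval -1.09 to 0.02, limma, unadjusted p = 0.0571, adjusted p = 0.453) and by -0.39 for DIM at 1500 over 500 ppm (-0.95 to 0.16). At 500 ppm DIM minus I3C was -0.20 (-0.75 to 0.35) and DIM minus BNF -0.23 (-0.78 to 0.33), or -0.39 and -0.42 with signs as deposited. The DIM dose difference was -0.20 as deposited. I3C minus BNF was -0.03 (-0.58 to 0.53). Over the 15 pairs of diets the unadjusted interval left out 0 for 3 (0 as deposited), and the samples did not overlap for 9. The share over all features was not computed for these counts. None of the tested contrasts passed.

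The second hsc70a feature stayed near the pool in every diet. Its 12 sample values ran from -0.22 to 0.17, and its diet means from -0.05 in DIM at 500 ppm to 0.06 in I3C at 1500 ppm, each with an SE of 0.15. The first minus the second averaged 0.19 ± 0.34 (SD, n = 12, exact two-sided sign-flip permutation p = 0.0806, adjusted p = 0.107), above 0 in 9 of 12 samples. It passed in 1 of 15 other settings, without I3C 1500 ppm replicate 1, at 0.24 (exact permutation, adjusted p = 0.0469), and failed in the other 14.

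The 2 spots of a feature show how well its values repeat. Over 24 arrays the adjacent spots correlated at 0.98 and 0.98 in the first and second hsp90ba features, 0.84 in the other hsp90ba feature, 0.93 in the first hsc70a feature and 0.22 in the second, where the median of all features was 0.87. Values of the second hsc70a feature near 0 thus come with spots that hardly followed each other. The SD of the spot difference was 0.14, 0.15, 0.35, 0.38 and 0.35, in the same order of features.

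The first hsc70a feature correlated across the 12 samples at r = 0.24 with the first hsp90ba feature, 0.39 with the second and 0.55 with the remaining one, and at -0.13, -0.03 and 0.50 with signs as deposited. Of named features outside their own gene, the most alike to the first and second hsp90ba features was col1a2, a chain of type I collagen, at r = 0.81 and 0.80, with 63 and 98 of 4367 features more alike still; as deposited r was 0.91 and 0.91. Next came LOC100136291 for the first (r = 0.70, and 0.71 as deposited) and LOC100135826 for the second (r = 0.68, and 0.88 as deposited). The third hsp90ba feature was most like LOC100136015 and stl3 (r = 0.78 each), the first hsc70a feature most like LOC100135948 (r = 0.69, and 0.34 as deposited) and another LOC100136015 feature (0.66), and the second hsc70a feature most like LOC100136015 (0.73) and the third hsp90ba feature (0.56).

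Of 62 listed symbols of chaperones and folding factors, hsp90ba and hsc70a were the only ones named on this array, so no other chaperone, co-chaperone or heat shock factor could be set beside them. Of 28 receptors that HSP90 holds and their target genes, cyp1a3 alone was present. This gene encodes a cytochrome P450 of the CYP1A family, whose members are induced through the aryl hydrocarbon receptor. It was at 0.10 ± 0.17 in BNF, 0.26 ± 0.17 in DIM at 500 ppm, 0.14 ± 0.17 in DIM at 1500 ppm, 0.17 ± 0.17 in I3C at 500 ppm, 0.20 ± 0.17 in I3C at 1500 ppm and 0.06 ± 0.17 in E2, called in none. As deposited it was at -0.062 in DIM at 500 ppm and 0.16 in E2.

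Markers of cell types were read on the same arrays. The hepatocyte features were 2 of ambp and 1 of antiprot1, both secreted plasma proteins. The 2 ambp features carry the same sequence accession and correlated at r = 0.98 over 12 samples, so the 3 features are 2 probes. In DIM at 500 ppm, DIM at 1500 ppm and I3C at 1500 ppm 3 of 3 were called lower, with medians of -1.09, -0.67 and -0.76. The share called among all features was 10.6%, 9.87% and 9.07% in those diets, and 5.98% in E2. In E2, I3C at 500 ppm and BNF 0 of 3 were called, with medians of -0.26, -0.55 and 0.11. The only feature that matched the list of red cell symbols was LOC100135826, and red cell genes outside that list were not read. It was called lower in DIM at 500 ppm (-0.73), DIM at 1500 ppm (-0.51), I3C at 1500 ppm (-0.75) and E2 (-0.75). It stood at -0.55 in I3C at 500 ppm and -0.02 in BNF. Of 3 stromal features, col1a2 was called lower in the same 4 diets and the 2 sparc features in none. The sparc features stood at 0.36 and 0.15 in DIM at 500 ppm, 0.04 and 0.01 in DIM at 1500 ppm, -0.01 and -0.39 in I3C at 1500 ppm, and 0.41 and -0.08 in E2, and the median of the 3 was 0.15 in DIM at 500 ppm. No immune marker of the list was named on the array. As deposited, no marker was called in any diet, where at most 0.0916% of all features were. In DIM at 500 ppm antiprot1 was then at 0.12, the ambp features at 0.18 and 0.24, LOC100135826 at 0.034 and col1a2 at 0.18. The sparc features were then at 0.11 and 0.05 in that diet. In E2 antiprot1 was at -0.055, ambp at -0.043 and 0.053, LOC100135826 at 0.050, col1a2 at -0.10 and sparc at -0.09 and -0.20. The part of these shifts in the hsp90ba result was not tested. In bulk liver RNA, fewer cells of a type and less RNA per cell cannot be told apart.

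Of comparators outside these roles, the ribosomal protein gene rps7 was called against the pool only in DIM at 1500 ppm, at 0.71 (limma, adjusted p = 0.00317). It was not called with signs as deposited (limma, adjusted p = 0.487), where 0% of all features were in that diet.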

How the data were processed

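For each of 24 arrays the authors deposited a single value for every spot, and intensities were not used here; per the labels' protocols RNA was labelled with Genisphere kits and read with ScanArray and QuantArray. How background was corrected, how values were normalised, the log base and the numerator are not given in the sources used. From the values, the deposited columns are log ratios taken as log2 (a natural log would enlarge every value), except 1 deposited linear ratio column (BNF replicate 1, treated RNA in Cy5), converted to log2. No per-sample column was left unused. Missing values numbered 0. All 5 features matched the gene table by Entrez number. The number of arrays limits the precision.

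Each array was centred on its median, ratios were turned to treated over pool, arrays whose dye component correlated below 0 with the other samples were turned, and adjacent spots and then dye swaps were averaged. The 4368 features by 12 samples were modelled in limma 3.58.1 (R 4.3.3), with a mean for each diet and empirical Bayes moderation, for 12 contrasts and an F test. Features were called at p under 0.05 after Benjamini-Hochberg adjustment over all features. The scripts were tested on simulated data. Figures used matplotlib 3.10.9.

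All 5 features are named; likeness names the 2 features with 1 symbol, of another gene, with the highest r over samples, and other genes come from lists. The members and lists were chosen with earlier results of these data known. rps7 and the cell type markers belong to those lists. Replicate numbers were not used to pair samples in the main model. Over 15 pairs of diets, deviations of same-numbered samples correlated at -0.60 to 0.46, and 6 pairs were over 0.1. Whether same-numbered samples share a batch was not tested.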

Additional observations from a re-analysis of the deposited data

Results flagged for a closer look

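Diets at a matched dose differed by a test of the difference itself in the 2 positions of the first hsp90ba accession. DIM minus I3C at 500 ppm was -0.90 in the first feature (spots 6040209 and 6040210; limma, adjusted p = 0.0462) and -0.90 in the second (6040611 and 6040612; adjusted p = 0.0371). DIM minus BNF at 500 ppm was -1.12 in the first (limma, adjusted p = 0.00509) and -1.14 in the second (adjusted p = 0.00328). Of all features, 2.82% were called in DIM minus I3C and 6.34% in DIM minus BNF. Both DIM 500 ppm samples were below both samples of the other diet in each case. The share of all features that separate so was not computed, and 2 samples per diet often do by chance. DIM 500 ppm replicate 1 was turned, and with signs as deposited no difference was called, where 0% of all features were. On uncentred arrays neither contrast was called in these features, and with the replicate number as a block DIM minus I3C was not.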

How the results depend on the processing

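Counts are of the 5 chaperone features called. The share called among all features also moved with the setting. With signs as deposited it was 0% in E2, both DIM diets, DIM minus I3C and DIM minus BNF at 500 ppm, and the F test. In I3C at 1500 ppm it was then 0.0916%, so the counts of 0 as deposited are not particular to the chaperone features. For I3C at 1500 ppm it was 7.21% uncentred, 5.68% with arrays scaled alike and 12.2% with array weights. With 24 arrays in 1 fit it was 10.9%, with single spots 7.91%, with the replicate block 8.45%, with print blocks centred 8.81% and with 1 diet alone 12.8%. For DIM minus I3C at 500 ppm it was 2.4% uncentred, 2.04% with single spots and 2.61% with the block. DIM minus BNF at 500 ppm had 3.25% uncentred. In DIM at 1500 ppm it was 6.68% uncentred, 5.63% with array weights and 7.3% alone. The F test had 4.74% uncentred, 3.99% with single spots and 4.81% with the block. With signs as deposited, the count was 0 for DIM at 500 ppm, DIM at 1500 ppm, E2, I3C at 1500 ppm, DIM minus I3C and DIM minus BNF at 500 ppm, and the F test; the sign of the second hsp90ba feature in E2 (0.053), of the first in DIM at 500 ppm (0.0090) and of both in DIM minus I3C (0.18 and 0.10) turned, and the first and second minus the third hsp90ba feature were -0.32 and -0.31. With the turned samples left out, the count was 0 for I3C at 1500 ppm, where 8.22% of all features were called. E2 and DIM at 500 ppm then keep 1 sample each. Calls were lost in E2, DIM minus I3C at 500 ppm, the F test and part of DIM minus BNF at 500 ppm. Fewer of all features were called in each of these as well. Uncentred arrays gave 0 for I3C at 1500 ppm, DIM minus I3C and DIM minus BNF at 500 ppm and the F test, and 1 for DIM at 1500 ppm. Arrays scaled alike and 24 arrays in 1 fit gave 0 for I3C at 1500 ppm. Single spots, with both spots required, gave 0 for I3C at 1500 ppm, DIM minus I3C at 500 ppm and the F test. The replicate block gave 0 for I3C at 1500 ppm, 0 for DIM minus I3C at 500 ppm and 1 for the F test, and moved no other count. Array weights and a fit of 1 diet alone gave 2 for I3C at 1500 ppm and 1 for DIM at 1500 ppm, and centring within print blocks gave 2 for I3C at 1500 ppm. Without 1 sample at a time, counts ran from 0 to 2 for E2, I3C at 1500 ppm, DIM at 1500 ppm, DIM minus I3C and DIM minus BNF at 500 ppm and the F test, and the hsc70a pair difference ran from 0.14 to 0.24. The count of 2 for DIM at 500 ppm was the same in 22 of 23 settings, signs as deposited being the exception. Leaving out a sample of another diet changes only the spread there and not the means. All of the 22 but those without replicate 1 keep the turn, so this tally does not bear on the direction of that sample. The counts of 0 for BNF, I3C at 500 ppm, I3C minus BNF at 500 ppm, DIM minus I3C at 1500 ppm and both dose contrasts did not move. The cause of these shifts was not tested. A filter on dim spots was not run, for want of intensities here.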
